A study of Mus musculus with 4 samples.

Results

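The 36 genes described here are interferon-stimulated genes, read from a per-library expression table of 23285 genes in mouse thymocytes at the DN3 stage. They were chosen by name, with earlier results of these data known. All 36 were found in the table, and all had a mean of at least 1 FPKM over the libraries, the level required for testing. FPKM scales the fragments of a gene by its transcript length and by library size. Thymocytes at the DN3 stage are CD4-negative, CD8-negative precursors that rearrange their T cell receptor beta genes and carry CD25. The study asked what the transcription factor GATA3 does in these cells. Donor fetal liver cells of either genotype had been given to irradiated mice, and DN3 cells were sorted 16 weeks afterwards. The first group came from donors labelled Gata3(g/g), which the labels call a hypomorph, and the second from wild-type (WT) donors. Both groups are labelled C57BL/6, both had passed through transfer into irradiated hosts, and each had 2 libraries.

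The sequence identifiers in the labels put the first replicate of each genotype in Run322 and the second in Run542, here called run 1 and run 2. Each pair of values for a genotype gives run 1 and then run 2. Separate animals are not stated for the replicates, and the p-values then measure only the spread between these libraries, which may be technical. The RNA of the targeted gene was higher, not lower, under the hypomorph label. Gata3 stood at 119.9 and 96.1 FPKM in Gata3(g/g), against 62.4 and 58.5 FPKM in WT. GATA3 protein was not measured, and the RNA level alone cannot check the label. Every direction below therefore rests on the labels, and Gata3(g/g) stands for the libraries so labelled. Libraries held 26901913 and 18035342 fragments for Gata3(g/g), and 21159909 and 14331705 for WT, so 3 fragments correspond to between 0.112 and 0.209 CPM, a count scaled by library size alone. The DN3 genes Il2ra, Ptcra, Dntt and Rag1 were present in every library, and Il2ra, which encodes CD25, was itself higher in Gata3(g/g), at 569 and 492 FPKM in Gata3(g/g), against 277 and 261 FPKM in WT, with a log2 fold change of 0.98 (edgeR adjusted p = 0.00262) in the fit with the run as a block.

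Interferons are secreted proteins that warn cells of infection. Type I interferons bind the IFNAR receptor and activate receptor-bound JAK kinases. These lead to the assembly of ISGF3, a complex that contains IRF9 and binds the interferon-stimulated response element (ISRE) in target promoters. Interferon-gamma acts through the gamma-activated site (GAS), and the target sets overlap. In the thymus, low steady interferon production is known from mouse medullary epithelium, and many target genes are expressed at a basal level without infection.

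The promoters of the members are shown because the ISRE is the element through which ISGF3 acts on such genes. RefSeq promoter windows on the GRCm38.p6 build, running from 250 bases before to 50 bases after each gene's start, were matched by symbol for 26 of the 36 members. Of these, 4 have more than 1 annotated start, which gives 30 windows in all. The 10 without an entry were Mx1, Mx2, Oas2, Usp18, Ifi27l2a, Rtp4, Zbp1, Parp9, Parp14 and Dhx58. The ISRE was searched as GAAA, 2 bases of any kind and GAAA again, on both strands and with overlapping matches counted, and stood in at least 1 window of 14 of the 26 genes (53.85%), compared with 3.99% of all 27025 genes with a window. By window the counts were 15 of 30, compared with 3.44% of 32851 windows. The GAS letters TTCNNNGAA stood in at least 1 window of 6 of the 26 genes (23.1%), compared with 9.55% of all genes with a window. By window the counts were 6 of 30, compared with 8.30% of all windows. A match of this kind is a description of the sequence and was not measured as a bound site. Among the 6 members that differed between genotypes in the blocked fit described below, 4 had a window, and Gbp2, Irgm1 and Trim30a held the ISRE letters while Samd9l did not. The 250 bases before the first listed start of those 3 genes and of Isg15 follow, 5′ to 3′ on the gene's own strand, with the ISRE letters or their reverse complement in capitals. They lie at chr3:142620413-142620662 (plus strand) for Gbp2, chr11:48871421-48871670 (minus strand) for Irgm1, chr7:104465194-104465443 (minus strand) for Trim30a and chr4:156200819-156201068 (minus strand) for Isg15. Isg15 holds 3 overlapping matches and Irgm1 holds 2.
Gbp2: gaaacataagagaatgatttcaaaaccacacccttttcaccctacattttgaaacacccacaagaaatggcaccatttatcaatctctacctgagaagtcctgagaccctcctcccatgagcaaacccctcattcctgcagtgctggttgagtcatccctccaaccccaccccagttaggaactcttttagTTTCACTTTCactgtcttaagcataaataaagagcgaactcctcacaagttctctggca
Irgm1: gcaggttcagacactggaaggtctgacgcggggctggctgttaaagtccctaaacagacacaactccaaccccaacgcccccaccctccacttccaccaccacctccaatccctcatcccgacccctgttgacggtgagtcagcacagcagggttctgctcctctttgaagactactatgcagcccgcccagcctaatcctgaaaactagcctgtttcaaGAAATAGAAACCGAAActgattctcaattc
Trim30a: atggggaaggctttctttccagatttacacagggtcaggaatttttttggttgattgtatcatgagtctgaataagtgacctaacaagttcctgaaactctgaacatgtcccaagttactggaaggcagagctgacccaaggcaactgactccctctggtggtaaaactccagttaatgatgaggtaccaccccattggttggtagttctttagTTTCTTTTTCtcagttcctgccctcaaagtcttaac
Isg15: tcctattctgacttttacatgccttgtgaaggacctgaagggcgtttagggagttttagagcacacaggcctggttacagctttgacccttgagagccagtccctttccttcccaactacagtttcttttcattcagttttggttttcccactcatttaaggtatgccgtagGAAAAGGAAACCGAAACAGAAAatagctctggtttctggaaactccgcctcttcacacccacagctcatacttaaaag

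Windows of 20 bases around the first match follow for 5 members whose level did not pass the genotype test. Each is turned so that the ISRE letters read on the strand shown. All genes printed here and above hold the letters, so they cannot show whether the letters go with the calls. The Ifit1 window lies at chr19:34640780-34640799, that of Oas1a at chr5:120907531-120907550, that of Bst2 at chr8:71537588-71537607, that of Igtp at chr11:58199517-58199536 and that of Gbp3 at chr3:142559994-142560013. Gbp3, a neighbour of Gbp2 on chromosome 3, has the letters GAAACTGAAA, which also stand in the Igtp window.
Ifit1: gactgGAAAGTGAAActgaa
Oas1a: ctcggGAAATGGAAActgaa
Bst2: tccagGAAAATGAAActgaa
Igtp: gaactGAAACTGAAAgctgt
Gbp3: aaataGAAACTGAAActgtg

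The level of the members spanned a wide range. Mean FPKM over the 4 libraries ran from 1.07 for Mx1 to 84.7 for Bst2, with 14 members at 10 FPKM or more, 12 between 3 and 10 FPKM and 10 under 3 FPKM. Bst2, which encodes tetherin, a protein that holds budding virus at the cell surface, was followed by the GTPase gene Ifi47 and by Dtx3l, a ubiquitin ligase gene. The lowest were Mx1, Ifit3, Oas1a, Rsad2, Mx2 and Oas2, each with a mean under 2 FPKM. The summed FPKM of the 36 genes was 490.1 and 428.4 in Gata3(g/g), against 408.8 and 398.8 in WT.

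**Figure D1:**
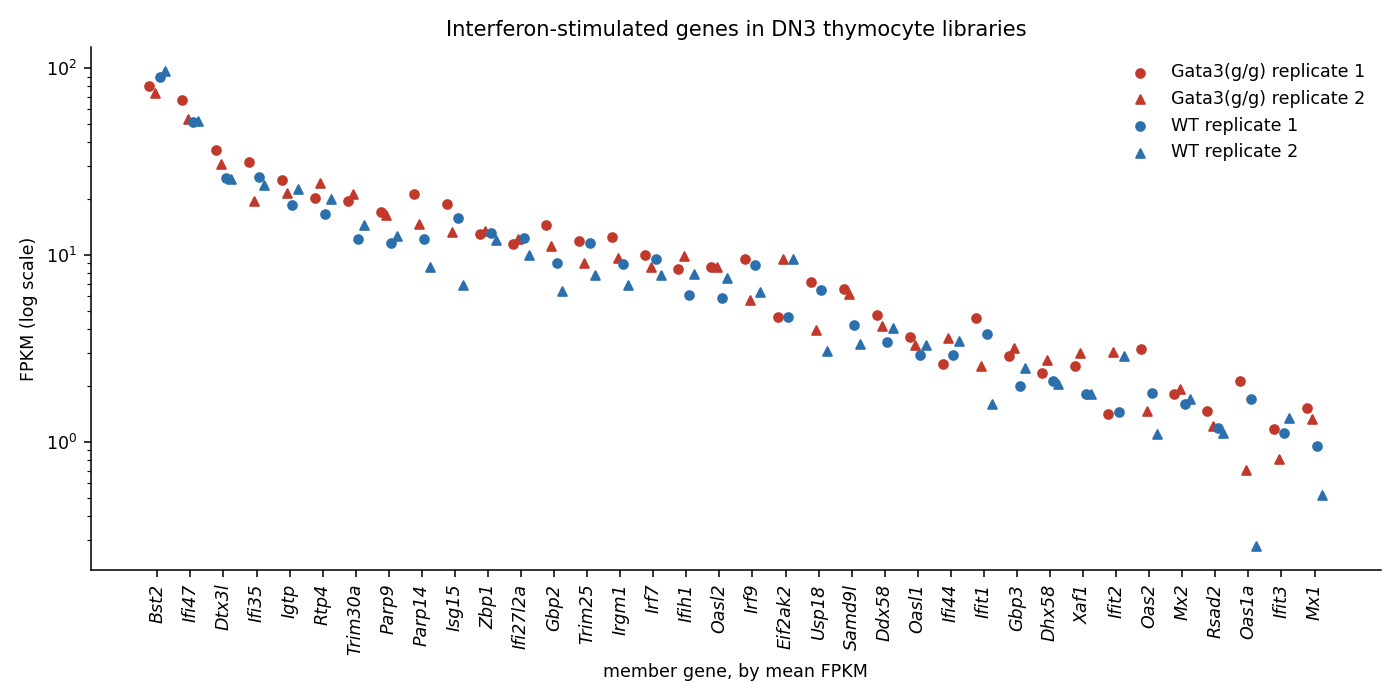
FPKM of each of the 36 interferon-stimulated genes in each library, on a log scale, with genes in order of mean FPKM. Each point is 1 library, red for Gata3(g/g) and blue for WT, circles for replicate 1 and triangles for replicate 2. Bst2 is the highest gene, and in Oas1a, Usp18 and Ifit1 the circles lie above the triangles of both genotypes.

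Most of the members stood higher in Gata3(g/g) than in WT, by small amounts. The median log2 fold change of the 36 genes was 0.27, with or without the run in the model, compared with 0.01 over the 10224 genes tested in the model with the run. The difference was above 0 in both runs for 27 of 36 members, compared with 33.1% of all genes tested, below 0 in both runs for Bst2 alone, and of opposite sign in the runs for the other 8. The blocked fold change was above 0 for 32 of 36 members, compared with 51.3% of all genes. Both Gata3(g/g) libraries lay above both WT libraries for 18 of 36 members, compared with 14.2% of all genes tested. They lay below both WT libraries for 1 of 36, compared with 14.8% of all genes tested. Because the members were chosen with earlier results of these data known, these shares and those below describe them and test nothing. In bulk RNA, more cells that express a gene and more RNA per cell cannot be told apart.

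Whether single members passed the test depended on the run. In edgeR's quasi-likelihood test without the run, 0 members and 0 of all genes (0.00%) had an adjusted p under 0.05, and 5 members (13.9%) had an unadjusted p under 0.05, as did 3.84% of all genes. With the run as a block, 6 members (16.7%) were higher in Gata3(g/g) and 0 lower, while 3.90% of all genes were called higher and 2.99% lower, 6.90% together. An unadjusted p under 0.05 was reached in that fit by 14 members and by 20.9% of all genes. The 6 were Parp14, Samd9l, Gbp2, Trim30a, Irgm1 and Parp9, and in each of them both Gata3(g/g) libraries lay above both WT libraries. DESeq2 with the block called Parp14, Samd9l, Gbp2 and Trim30a, against 2.25% of all genes called higher, and DESeq2 without it called 0 members and 0.861% of all genes, with an unadjusted p under 0.05 in 4 members and 4.06% of all genes. With limma on log2(FPKM + 1), 0 members and 0.176% of all genes passed with the block, with an unadjusted p under 0.05 in 11 members and 15.1% of all genes. Without the block limma passed 0 members and 0.0489% of all genes, with an unadjusted p under 0.05 in 3 members and 3.82% of all genes. In the authors' deposited table, which compares the same libraries, the same 4 genes that DESeq2 called had q-values under 0.05, at 0.0022 for Parp14, 0.0101 for Samd9l, 0.0144 for Gbp2 and 0.0225 for Trim30a, where 2.29% of all genes were called higher.

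**Figure D2:**
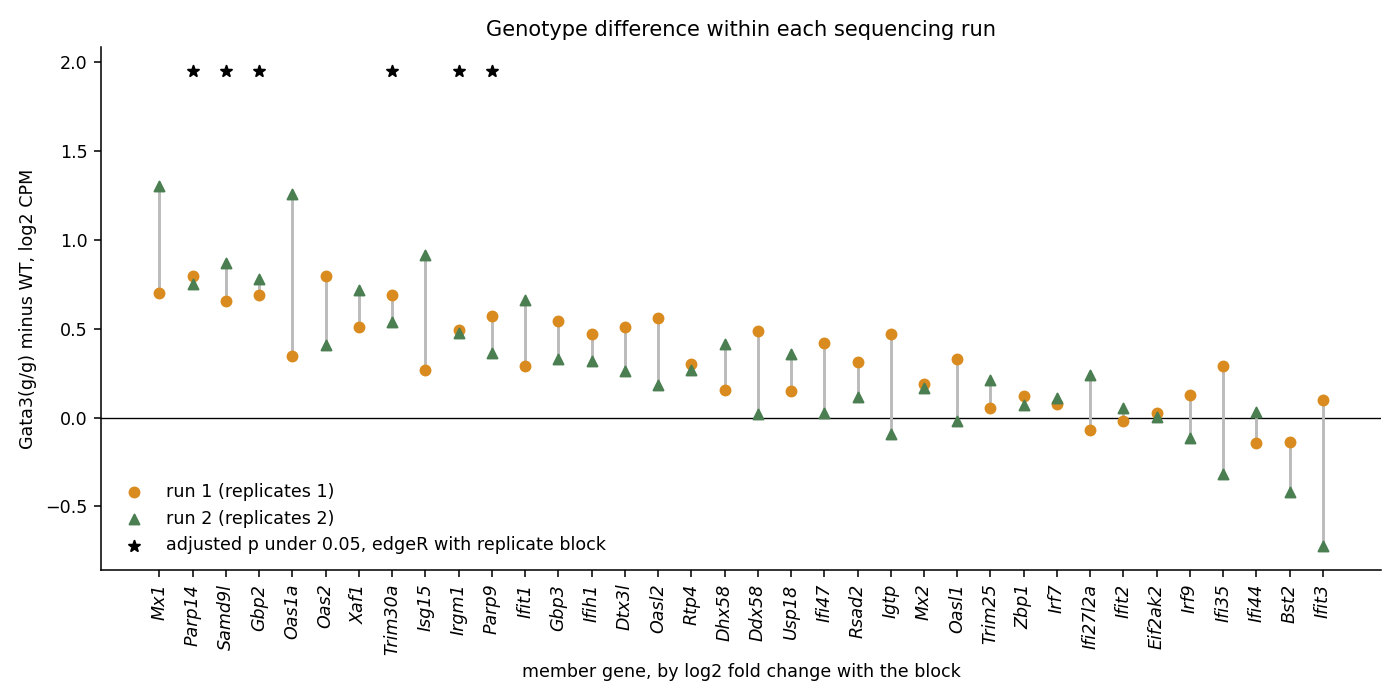
Difference between Gata3(g/g) and WT in log2 CPM within run 1 (orange circles) and within run 2 (green triangles) for each of the 36 genes, ordered by log2 fold change in the fit with the run as a block. Grey lines join the runs of a gene, and stars mark the 6 genes with an adjusted p under 0.05 in edgeR with the block. Parp14, Gbp2 and Irgm1 have runs that lie close together, whereas Oas1a, Isg15 and Ifit3 have runs that lie far apart.

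Among the ADP-ribosyltransferases and their partner, 2 of 3 genes rose in the blocked fit, where 3.90% of all genes were called higher. Parp14, which encodes a mono-ADP-ribosyltransferase active in interferon and IL-4 signalling (chr16:35831892-35871518, mm10), had 21.1 and 14.6 FPKM in Gata3(g/g), against 12.2 and 8.61 FPKM in WT. The log2 fold change was 0.78 ± 0.121 (SE; edgeR adjusted p = 0.0006103), and the differences were 0.80 within run 1 and 0.75 within run 2. The runs gave nearly the same difference although the level itself was lower in run 2. Parp9 (chr16:35938470-35972621), whose product is an ADP-ribosyltransferase that works in a complex with the ubiquitin ligase DTX3L, had 16.9 and 16.3 FPKM in Gata3(g/g), against 11.5 and 12.6 FPKM in WT. The fitted log2 difference was 0.47 ± 0.131 (SE; edgeR adjusted p = 0.04104). Dtx3l (chr16:35926515-35939027) had 36.4 and 30.8 FPKM in Gata3(g/g), against 25.9 and 25.6 FPKM in WT, with a log2 fold change of 0.39 ± 0.127 (SE; edgeR adjusted p = 0.0832), and did not pass. All 3 genes lie within one stretch of chromosome 16, and the annotated spans of Parp9 and Dtx3l share 558 bases, so the split of fragments between that pair is uncertain. For Parp9, DESeq2 with the block gave an adjusted p of 0.136, and the q-value in the authors' deposited table was 0.458.

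Of the 5 interferon-inducible GTPases among the members, which act on the membranes of vacuoles that hold pathogens, 2 rose in the blocked fit. In that fit 3.90% of all genes were called higher. Gbp2, a guanylate-binding protein gene (chr3:142620663-142638008), had 14.5 and 11.1 FPKM in Gata3(g/g), against 9.09 and 6.42 FPKM in WT. This gave a log2 fold change of 0.73 ± 0.138 (SE; edgeR adjusted p = 0.00296), or 0.69 within run 1 and 0.78 within run 2. Each Gata3(g/g) library lay above its run partner and above both WT libraries. Irgm1, an immunity-related GTPase gene whose product restrains other members of its family (chr11:48865245-48871420), had 12.4 and 9.66 FPKM in Gata3(g/g), against 8.95 and 6.87 FPKM in WT. On the log2 scale the difference was 0.49 ± 0.138 (SE; edgeR adjusted p = 0.0432), or 0.49 within run 1 and 0.48 within run 2. This call was close to the threshold: with no filter on low genes its adjusted p was 0.0676 in edgeR with the block, and in DESeq2 with the block it was 0.260. Gbp3 had 2.89 and 3.17 FPKM in Gata3(g/g), against 2.002 and 2.499 FPKM in WT, without overlap between the genotypes, but its log2 fold change of 0.44 ± 0.214 (SE; edgeR adjusted p = 0.2499) did not pass. Ifi47, the most abundant of these 5 GTPases, had 67.3 and 53.5 FPKM in Gata3(g/g), against 51.1 and 52.1 FPKM in WT. Both Gata3(g/g) libraries lay above both WT libraries, with the run 2 library of Gata3(g/g) close to WT. Igtp had 25.2 and 21.4 FPKM in Gata3(g/g), against 18.4 and 22.6 FPKM in WT, with opposite differences of 0.47 within run 1 and -0.09 within run 2. Neither passed, at 0.22 (edgeR adjusted p = 0.3597) for Ifi47 and 0.19 (edgeR adjusted p = 0.509) for Igtp.

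Among the other effectors, 2 of 9 rose in the blocked fit, where 3.90% of all genes were called higher. Samd9l, an antiviral gene whose product restrains translation and cell growth (chr6:3372257-3399571), had 6.598 and 6.17 FPKM in Gata3(g/g), against 4.23 and 3.35 FPKM in WT. The blocked log2 fold change was 0.76 ± 0.1396 (SE; edgeR adjusted p = 0.00241), and the differences were 0.66 within run 1 and 0.87 within run 2. Trim30a, a mouse gene for a RING-type ubiquitin ligase that dampens Toll-like receptor signalling (chr7:104409025-104465193), had 19.4 and 21.05 FPKM in Gata3(g/g), against 12.2 and 14.4 FPKM in WT. Trim30a differed by a log2 fold change of 0.61 ± 0.126 (SE; edgeR adjusted p = 0.00617), or 0.69 within run 1 and 0.54 within run 2, and in both genes the genotypes did not overlap. Trim30a has close paralogues beside it, and the way the authors' counting divided shared fragments is not stated.

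Bst2 was 1 of 4 members with a log2 fold change below 0 in the blocked fit, beside Ifit3, Ifi44 and Ifi35. It had 79.7 and 73.3 FPKM in Gata3(g/g), against 89.4 and 96.2 FPKM in WT, the only member for which both Gata3(g/g) libraries lay below both WT libraries, and its log2 fold change of -0.28 ± 0.132 (SE; edgeR adjusted p = 0.246) did not pass. Xaf1, an antagonist of the apoptosis inhibitor XIAP, had 2.54 and 3.01 FPKM in Gata3(g/g), against 1.797 and 1.805 FPKM in WT. The genotypes did not overlap in Xaf1, and its log2 fold change was 0.62 ± 0.229 (SE; edgeR adjusted p = 0.123). Rtp4, a chaperone of cell surface receptors, had 20.1 and 24.1 FPKM in Gata3(g/g), against 16.5 and 19.8 FPKM in WT, with a log2 fold change of 0.28 (edgeR adjusted p = 0.245). Its annotated span overlaps that of Masp1. Ifi35 had 31.3 and 19.3 FPKM in Gata3(g/g), against 26.01 and 23.8 FPKM in WT, a pair of opposite differences of 0.29 within run 1 and -0.32 within run 2 that left a log2 fold change of -0.01 (edgeR adjusted p = 0.989). Rsad2, which encodes viperin, stood at 0.22 (edgeR adjusted p = 0.664), Ifi44 at -0.06 (edgeR adjusted p = 0.903) and Ifi27l2a at 0.08 (edgeR adjusted p = 0.9102).

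The Mx genes, which encode dynamin-like antiviral GTPases, included the member with the highest fold change, which did not pass. Mx1 had 1.51 and 1.32 FPKM in Gata3(g/g), against 0.946 and 0.5201 FPKM in WT, from 209 and 118 fragments in Gata3(g/g), against 97 and 36 in WT. Its log2 fold change was 0.99 ± 0.309 (SE; edgeR adjusted p = 0.0687), or 0.70 within run 1 and 1.30 within run 2. With no filter on low genes Mx1 was called in the blocked edgeR fit, at an adjusted p of 0.0128. It was not called with the block in DESeq2 (adjusted p = 0.305) or limma (adjusted p = 0.293). In the authors' deposited table its q-value was 0.143. C57BL/6 mice are known to carry a defective Mx1 allele, so this transcript does not give a working protein there. Mx2 stood at 0.18 (edgeR adjusted p = 0.747).

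None of the 5 OAS family and PKR genes among the members passed for genotype. Oas1b, which is not a member, passed in the blocked fit and is given below. The oligoadenylate synthetases make the second messenger that activates RNase L, and PKR, encoded by Eif2ak2, halts translation when it binds double-stranded RNA. Oas2 had 3.14 and 1.47 FPKM in Gata3(g/g), against 1.82 and 1.097 FPKM in WT, with a log2 fold change of 0.62 ± 0.214 (SE; edgeR adjusted p = 0.0958). Oas1a had 2.12 and 0.709 FPKM in Gata3(g/g), against 1.69 and 0.276 FPKM in WT, from 193 and 43 fragments in Gata3(g/g), against 115 and 13 in WT, with a log2 fold change of 0.68 ± 0.366 (SE; edgeR adjusted p = 0.309). In both genes the WT library of run 1 lay above the Gata3(g/g) library of run 2, so the genotypes overlapped although the difference was positive within each run. Oas1a also has near-identical neighbours, which makes its count uncertain. Oasl2 stood at 0.37 (edgeR adjusted p = 0.142), Oasl1 at 0.16 (edgeR adjusted p = 0.734) and Eif2ak2 at 0.01 (edgeR adjusted p = 0.971).

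Both member genes of the ISG15 system were higher in Gata3(g/g) within each run without passing. Ube2l6, a gene of that system outside the members, passed in the blocked fit and is given below. Isg15, the ubiquitin-like modifier, had 18.6 and 13.2 FPKM in Gata3(g/g), against 15.8 and 6.87 FPKM in WT. Isg15 differed by a log2 fold change of 0.57 ± 0.211 (SE; edgeR adjusted p = 0.122), or 0.27 within run 1 and 0.91 within run 2. Usp18, which removes ISG15 from proteins and restrains the type I receptor, had 7.15 and 3.97 FPKM in Gata3(g/g), against 6.53 and 3.06 FPKM in WT, with a log2 fold change of 0.25 ± 0.192 (SE; edgeR adjusted p = 0.506). In both genes the run 1 WT library exceeded the run 2 library of Gata3(g/g). The IFIT genes, whose products bind viral RNA, had unlike values. Ifit1 had 4.59 and 2.56 FPKM in Gata3(g/g), against 3.79 and 1.598 FPKM in WT, with a log2 fold change of 0.46 ± 0.204 (SE; edgeR adjusted p = 0.202). Ifit2 had 1.41 and 3.01 FPKM in Gata3(g/g), against 1.45 and 2.89 FPKM in WT, with almost no genotype difference, at 0.02 (edgeR adjusted p = 0.975). Ifit3 had 1.18 and 0.806 FPKM in Gata3(g/g), against 1.12 and 1.34 FPKM in WT, the lowest fold change among the members at -0.29 (edgeR adjusted p = 0.691), negative only within run 2, with 0.10 within run 1 and -0.73 within run 2.

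None of the RNA and DNA sensors or of the transcription factors among the members passed for genotype. Ifih1, which encodes the RNA sensor MDA5, came closest, with 8.39 and 9.81 FPKM in Gata3(g/g), against 6.13 and 7.91 FPKM in WT and a log2 fold change of 0.39 ± 0.133 (SE; edgeR adjusted p = 0.0901). Its genotypes did not overlap. Ddx58, which encodes RIG-I, stood at 0.26 (edgeR adjusted p = 0.3497), Dhx58, which encodes LGP2, at 0.28 (edgeR adjusted p = 0.5398), the Z-nucleic acid sensor gene Zbp1 at 0.10 (edgeR adjusted p = 0.789) and the ubiquitin ligase gene Trim25 at 0.13 (edgeR adjusted p = 0.616). Irf9, the DNA-binding part of ISGF3, had 9.48 and 5.71 FPKM in Gata3(g/g), against 8.79 and 6.3 FPKM in WT, with a log2 fold change of 0.01 (edgeR adjusted p = 0.975). Irf7, which amplifies type I interferon production, had 9.94 and 8.57 FPKM in Gata3(g/g), against 9.45 and 7.84 FPKM in WT, at 0.09 (edgeR adjusted p = 0.784). In both factors the genotypes overlapped.

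The members differed between runs about as often as genes in general, and more of them were lower than higher in run 2. In the model with genotype and run, 11 members (30.6%) had an adjusted p under 0.05 for run, as did 34.8% of all genes. Of these, 9 of 36 were lower in run 2, compared with 17.3% of all genes, and 2 of 36 were higher, compared with 17.5% of all genes. The 9 were Oas1a, Ifit1, Usp18, Oas2, Isg15, Irf9, Parp14, Trim25 and Gbp2. With run alone in the model, 0 members were called lower. Calls among all genes fell as well, with 314 of 10224 called lower, against 1766 in the model with genotype and run.

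Oas1a had the largest run difference, with 0.709 and 0.276 FPKM in the run 2 libraries of Gata3(g/g) and WT, against 2.12 and 1.69 FPKM in the run 1 libraries of Gata3(g/g) and WT. Its log2 fold change of run 2 over run 1 was -1.97 ± 0.375 (SE; edgeR adjusted p = 0.000784). Ifit1 stood at -1.01 (edgeR adjusted p = 0.00127), Usp18 at -0.95 (edgeR adjusted p = 0.00135), Oas2 at -0.90 (edgeR adjusted p = 0.00411), Isg15 at -0.84 (edgeR adjusted p = 0.00611), Irf9 at -0.61 (edgeR adjusted p = 0.00488), Parp14 at -0.49 (edgeR adjusted p = 0.00498), Trim25 at -0.46 (edgeR adjusted p = 0.0105) and Gbp2 at -0.42 (edgeR adjusted p = 0.0262). These genes include both member genes of the ISG15 system and the ISGF3 component Irf9. Eif2ak2 and Ifit2 went the other way. Eif2ak2 had 9.57 and 9.495 FPKM in the run 2 libraries of Gata3(g/g) and WT, against 4.68 and 4.66 FPKM in the run 1 libraries of Gata3(g/g) and WT, a log2 fold change of 1.05 ± 0.137 (SE; edgeR adjusted p = 3.14e-05). Ifit2 had 3.01 and 2.89 FPKM in the run 2 libraries of Gata3(g/g) and WT, against 1.41 and 1.45 FPKM in the run 1 libraries of Gata3(g/g) and WT, a log2 fold change of 1.07 ± 0.193 (SE; edgeR adjusted p = 0.0005301). Ifit1 and Ifit2, which belong to one gene family on chromosome 19, thus differed in opposite directions between the runs in both genotypes.

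Other genes moved between the runs as well. Ifng, the interferon-gamma gene, had 0.219 and 0 FPKM in the run 2 libraries of Gata3(g/g) and WT, against 6.71 and 8.57 FPKM in the run 1 libraries of Gata3(g/g) and WT, counts of 8 and 0 fragments in run 2, against 370 and 354 in run 1. Genes of the immediate-early response, Fos, Fosb, Jun, Egr1, Ier2, Atf3 and Dusp1, summed to 49.4 and 36.1 FPKM in the run 2 libraries of Gata3(g/g) and WT, against 438.7 and 595.2 FPKM in the run 1 libraries of Gata3(g/g) and WT. The 7 erythroid markers went the other way, with summed levels of 592.9 and 464 FPKM in the run 2 libraries of Gata3(g/g) and WT, against 2.201 and 1.212 FPKM in the run 1 libraries of Gata3(g/g) and WT. The part of these genes in the run differences of the members was not tested. The sequence run cannot be told apart from any other difference between the first and second replicates.

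**Figure D3:**
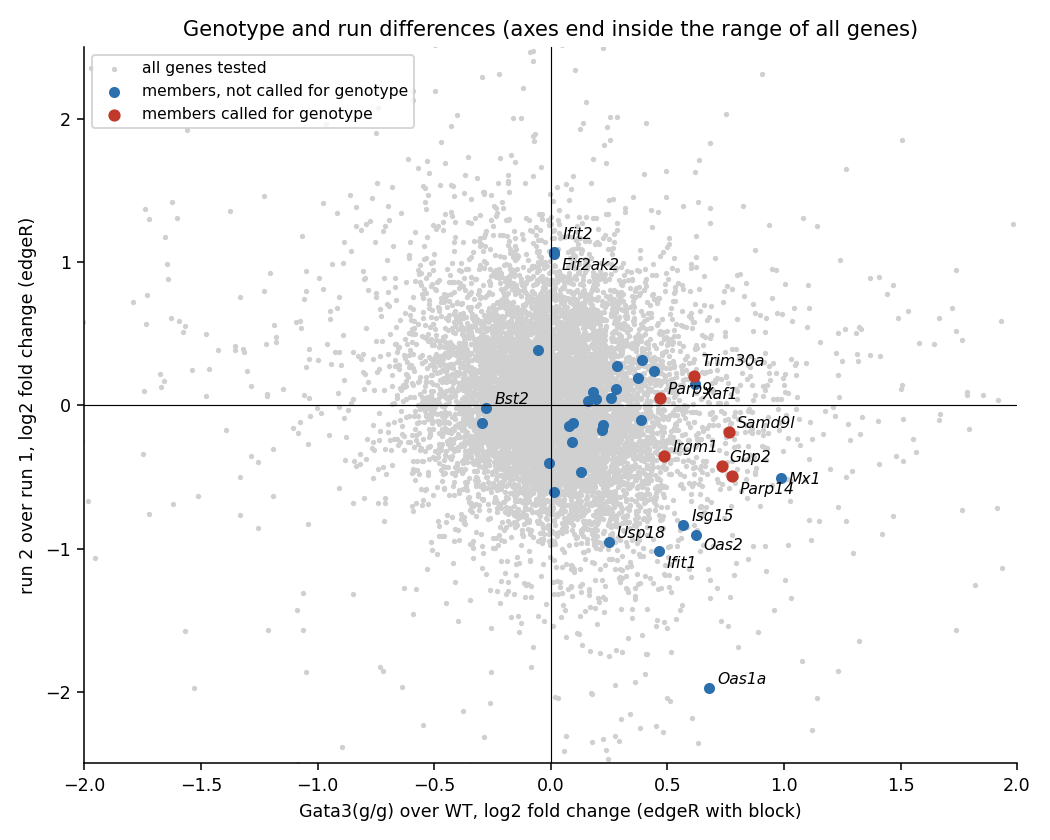
Log2 fold change of Gata3(g/g) over WT (horizontal) against log2 fold change of run 2 over run 1 (vertical), from edgeR with genotype and run in the model. Grey points are all genes tested, blue points are interferon-stimulated genes not called for genotype, and red points are the 6 called for genotype. Oas1a, Ifit1, Oas2 and Isg15 lie to the lower right, Ifit2 and Eif2ak2 lie near 0 for genotype and near 1 for run, and axes end inside the range of all genes.

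The rest of the pathway was read from lists of ligands, receptors, signalling proteins and further target genes. These lists were also chosen with earlier results of these data known, so their shares are descriptions. Of 19 ligand genes in the table, 18 were below a mean of 1 FPKM and 4 were listed at 0 in all libraries, and Ifng alone was tested, with a genotype log2 fold change of -0.05 (edgeR adjusted p = 0.962). Of the receptor genes, 0 of 5 tested passed in the blocked fit, with a median log2 fold change of 0.10 and an unadjusted p under 0.05 in 1 gene. Ifngr1, the ligand-binding chain of the interferon-gamma receptor, was the most abundant, with 171 and 158 FPKM in Gata3(g/g), against 155 and 221 FPKM in WT.

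Of the 12 JAK-STAT genes and inhibitors, 3 rose and 0 fell in the blocked fit, compared with 3.90% and 2.99% of all genes, with a median of 0.19, compared with 0.01 over all genes. These were the signalling inhibitor gene Socs3, with 10.7 and 6.5 FPKM in Gata3(g/g), against 6.53 and 4.25 FPKM in WT and a log2 fold change of 0.67 (edgeR adjusted p = 0.00836), the phosphatase gene Ptpn6, with 50.2 and 37.8 FPKM in Gata3(g/g), against 37.1 and 22.7 FPKM in WT and a log2 fold change of 0.59 (edgeR adjusted p = 0.00836), and the kinase gene Jak2, with 7.09 and 8.02 FPKM in Gata3(g/g), against 5.63 and 4.604 FPKM in WT and a log2 fold change of 0.57 (edgeR adjusted p = 0.0264). Stat2 did not pass, at 0.24 (edgeR adjusted p = 0.3605). Of the 12 further sensor, adaptor and nuclease genes and the 3 other IRF genes tested, 0 passed in either direction, with medians of 0.04 and -0.01 and an unadjusted p under 0.05 in 2 genes of each list. Irf1, an interferon-induced transcription factor gene, stood at -0.01 (edgeR adjusted p = 0.983).

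Of 40 other type I target genes tested, 10 rose and 2 fell in the blocked fit, compared with 3.90% and 2.99% of all genes, with a median of 0.21. Ube2l6, which encodes the conjugating enzyme for ISG15, had 5.0 and 2.96 FPKM in Gata3(g/g), against 2.09 and 0.961 FPKM in WT and a log2 fold change of 1.42 (edgeR adjusted p = 0.00526). Pyhin1 and Ifi203, of the interferon-inducible PYHIN family, stood at 1.37 (edgeR adjusted p = 7.58e-06) and 1.04 (edgeR adjusted p = 0.000106), and the DNA sensor gene Aim2 of the same family at 0.59 (edgeR adjusted p = 0.0156). Ly6a, which encodes Sca-1, had 50.97 and 62.1 FPKM in Gata3(g/g), against 24.4 and 30.3 FPKM in WT, at 1.05 (edgeR adjusted p = 0.000111). Oas1b stood at 1.07 (edgeR adjusted p = 0.03998), the MHC class I activator gene Nlrc5 at 0.84 (edgeR adjusted p = 0.000586), Isg20 at 0.54 (edgeR adjusted p = 0.0347), Trim34a at 0.53 (edgeR adjusted p = 0.0301) and Trim21 at 0.47 (edgeR adjusted p = 0.04802). The 2 that fell were Plscr1, with 0.307 and 0.575 FPKM in Gata3(g/g), against 1.52 and 1.91 FPKM in WT and a log2 fold change of -2.01 (edgeR adjusted p = 0.001898), and the galectin gene Lgals9, with 216 and 251 FPKM in Gata3(g/g), against 291 and 402 FPKM in WT and a log2 fold change of -0.55 (edgeR adjusted p = 0.0493).

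Of 17 further GTPase and immunoproteasome genes induced by interferon-gamma, 7 rose and 0 fell in the blocked fit, compared with 3.90% and 2.99% of all genes, with a median of 0.45. All 7 were GTPase genes. Gbp8, the most abundant of them, had 65.6 and 79.4 FPKM in Gata3(g/g), against 36.5 and 45.8 FPKM in WT and a log2 fold change of 0.82 (edgeR adjusted p = 0.000407). Gbp5 stood at 1.11 (edgeR adjusted p = 0.0171), Iigp1 at 0.997 (edgeR adjusted p = 0.007998), Gbp6 at 0.64 (edgeR adjusted p = 0.0126), Gbp4 at 0.48 (edgeR adjusted p = 0.0273), Gbp9 at 0.47 (edgeR adjusted p = 0.0394) and Gbp7 at 0.45 (edgeR adjusted p = 0.0438). The immunoproteasome gene Psmb8 had 148 and 149 FPKM in Gata3(g/g), against 142 and 127 FPKM in WT and did not pass, at 0.14 (edgeR adjusted p = 0.557). The guanylate-binding protein genes are close paralogues, so their separate counts are uncertain. In edgeR without the block, 0 genes of any of these lists passed, with an unadjusted p under 0.05 in 1 JAK-STAT gene, 9 of the other type I targets and 3 of the GTPase and immunoproteasome genes, compared with 3.84% of all genes. In the blocked fit 20.9% of all genes had an unadjusted p under 0.05.

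**Figure D4:**
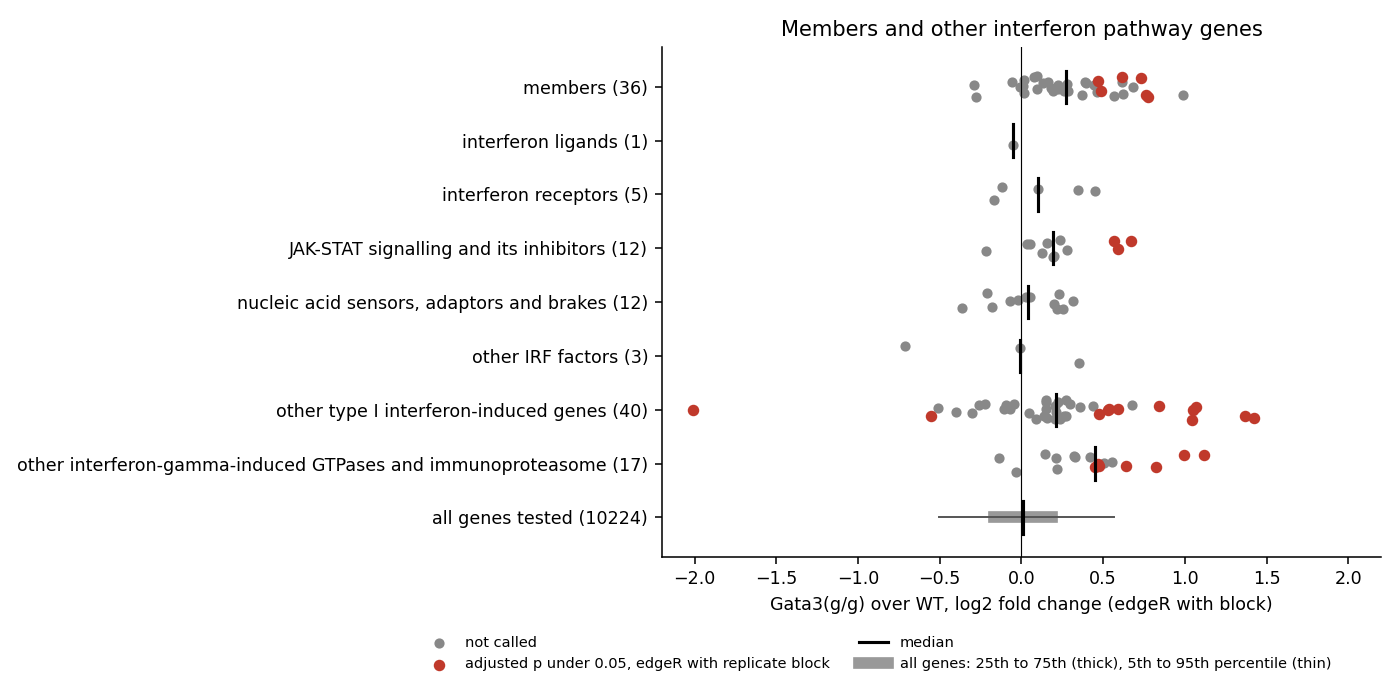
Log2 fold change of Gata3(g/g) over WT in edgeR with the run as a block, for the 36 genes and for each list of other interferon pathway genes, with the number tested in brackets. Each point is 1 gene, red where the adjusted p is under 0.05, black bars are medians, and the bottom line shows the spread of all genes tested. The medians of the 36 genes and of the GTPase list are 0.27 and 0.45, and Plscr1 is the far left point at -2.01.

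Markers of other cell types also differed between the genotypes in part. Plasmacytoid dendritic cell markers, 9 in the table, summed to 44.8 and 49.0 FPKM in Gata3(g/g), against 29.9 and 36.4 FPKM in WT. In that list Cox6a2 carried the difference, with 15.3 and 19.2 FPKM in Gata3(g/g), against 1.27 and 2.54 FPKM in WT. Siglech was at most 0.0889 FPKM and Klk1 was listed at 0 in every library. Ccr9, most of the WT sum, went the other way, with 16.8 and 15.95 FPKM in Gata3(g/g), against 17.9 and 22.5 FPKM in WT. Its log2 fold change was -0.29 (edgeR adjusted p = 0.222). Spib stood at -0.12 (edgeR adjusted p = 0.775), Lair1 at 0.43 (edgeR adjusted p = 0.101) and Tcf4 at 0.32 (edgeR adjusted p = 0.187). Myeloid markers summed to 22.9 and 17.9 FPKM in Gata3(g/g), against 13.6 and 10.8 FPKM in WT, with Lyz2 at 18.7 and 13.6 FPKM in Gata3(g/g), against 9.93 and 4.203 FPKM in WT and a log2 fold change of 1.27 (edgeR adjusted p = 0.0006103), while Csf1r, Itgam and Emr1 were below 0.3 FPKM throughout. Itgax, too low to be tested, had 0.547 and 0.447 FPKM in Gata3(g/g), against 0.151 and 0.142 FPKM in WT. In Itgam and Csf1r, also untested, both Gata3(g/g) libraries lay above both WT libraries. In Emr1, Fcgr3, Batf3 and Xcr1 the genotypes overlapped. Cd68, the other tested marker of that list, had 3.27 and 2.96 FPKM in Gata3(g/g), against 2.96 and 6.02 FPKM in WT, with a log2 fold change of -0.43 (edgeR adjusted p = 0.485). Mature T cell markers summed to 13.3 and 12.5 FPKM in Gata3(g/g), against 7.93 and 5.13 FPKM in WT. In that list Cd8a and Cd8b1 were higher at 1.28 (edgeR adjusted p = 0.011) and 1.76 (edgeR adjusted p = 0.00135), and Cd4 was below 0.5 FPKM in every library. Cd5 did not pass, at 0.35 (edgeR adjusted p = 0.466). Ccr7, too low to be tested, had 0.922 and 0.4865 FPKM in Gata3(g/g), against 0.865 and 0.728 FPKM in WT. S1pr1, also untested, had 0.172 and 0.188 FPKM in Gata3(g/g), against 0.247 and 0.1915 FPKM in WT. B cell markers summed to 37.2 and 29.9 FPKM in Gata3(g/g), against 30.1 and 29.4 FPKM in WT, nearly all of it Cd79b. NK cell markers stayed below 1 FPKM in sum in every library. Stromal markers summed to 33.7 and 31.8 FPKM in Gata3(g/g), against 32.6 and 24.5 FPKM in WT, nearly all of it Epcam and Pecam1. In that list Krt5, Krt8, Foxn1, Col1a1, Col3a1 and Pdgfra were below 0.3 FPKM in every library. The part of these transcripts in the genotype differences of the members was not tested.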

How the data were processed

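RNA from 4 libraries of sorted DN3 thymocytes was measured, 2 of Gata3(g/g) and 2 of WT. Tools named in the submitters' processing notes are Cuffdiff 2.1.1, TopHat2 2.0.8b and Bowtie2 2.1.0, on mm10. Annotation and strandedness are not given in the sources used, which leaves overlapping genes uncertain. Deposited values are, per the file headers, an estimated count of fragments and an FPKM value per gene and library. The authors' deposited comparison table gives mean FPKM, p-value, q-value and log2 fold change. Another 2 columns of scaled fragments per library were not used. Genes whose locus was marked too deep (3) were left out. Of 5 values marked as failed, 0 belonged to the members. Between 97.7% and 98.9% of estimated counts lay within 0.01 of a whole number.

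Estimated counts were rounded and tested with edgeR 4.0.16 in R 4.3.3 (quasi-likelihood F test, two-sided). Scaling was TMM, genes needed a mean of at least 1 FPKM, and Benjamini-Hochberg adjustment ran over 10224 genes. The test was also run on simulated counts with the same spread setting for all genes and the same run effect in both genotypes. That simulation does not cover runs that disagree in their genotype difference, so it does not vouch for the blocked calls. Genotype was fitted without and with the replicate number as a block. The pairing comes from the labels' sequence identifiers, and the run differences of both genotypes correlated over 10224 genes (Pearson's r = 0.754, Spearman's rho = 0.758). Alternatives were DESeq2 1.42.0, limma 3.58.1 on log2(FPKM + 1) or log2(FPKM + 0.1), other scalings and filters, and leaving out each library. Within-run differences are of log2 CPM with a prior count of 2. The floor of 3 fragments covers counting error only. Promoters are from RefSeq.

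The members and gene lists were chosen with earlier results of these data known. By rule, full values were given for members that passed for genotype and for the 8 with the highest mean FPKM. The same held for the 10 with the largest genotype and the 6 with the largest run fold change. Ifit3, Gbp3, Ifih1, Irf7 and Irf9 were given in full outside this rule. Other pathway genes were named if they passed in a genotype fit, or as up to 3 per list of high FPKM. Stat2 was named without meeting either condition. The values of 1 gene of the pathway lists are not reported here.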

Additional observations from a re-analysis of the deposited data

How the results depend on the processing

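The cause of the changes below was not tested unless named. With 2 libraries per genotype, the block decided the calls: members called higher numbered 0 without it, 6 with it, 6 with it and total counts as scaling, 6 with it and no filter on low genes, and 4 with it in DESeq2. The 6 with no filter were not the same set. Irgm1 was no longer called (edgeR adjusted p = 0.0676), and Mx1 was (edgeR adjusted p = 0.0128). All genes called higher and lower numbered 0 and 0 without the block, 399 and 306 with it, 464 and 210 with it and total counts, 548 and 440 with it and no filter, and 230 and 187 with it in DESeq2. Without the block they numbered 30 and 28 with no filter, 50 and 38 in DESeq2, and 3 and 2 in limma with either pseudocount, and limma with the block gave 10 and 8. Leaving out each library gave 1 to 5 higher and 0 to 6 lower. The member median of 0.27 was 0.32 with the block and total counts, 0.21 in limma with or without the block, and 0.19 to 0.35 with each library left out. Ifi35, at 0.03 without the block, was -0.0059 with it, -0.010 with it and no filter, -0.011 with it in DESeq2, -0.014 in limma with or without it, and -0.016 in limma with the small pseudocount. Leaving out each library spanned 0 for Ifi35 (-0.37 to 0.34), Ifit1 (-0.067 to 1.14), Ifit2 (-0.62 to 0.63), Oas1a (-0.47 to 2.33), Usp18 (-0.27 to 0.84) and Eif2ak2 (-0.60 to 0.64). These fits have no block and share the runs unequally between genotypes, and the lone library of a genotype is assumed to vary like the others. With the block, leaving out a library leaves no residual degrees of freedom, so the within-run values stand in for it.

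For run, the 2 members called higher numbered 1 with a minimum of 5 FPKM and 0 to 2 with each library left out. The 9 called lower numbered 3 in limma, 0 with run alone in the model and 0 to 4 with each library left out. All genes called higher numbered 1794, against 1166 in DESeq2, 740 in limma, 437 with run alone and 44 to 765 with each library left out. All genes called lower numbered 1766, against 2814 with no filter, 1097 in DESeq2, 711 in limma, 314 with run alone and 38 to 771 with each library left out. With no filter, the median run difference of the 10224 genes shifted to -0.17, and that of the members to -0.29, against -0.12. The same setting turned Xaf1 to -0.0070, Igtp to -0.12 and Parp9 to -0.11, and a minimum of 5 FPKM turned Bst2 to 0.028. The member median was -0.20 to 0.032 with each library left out. The same fits spanned 0 for Mx1 (-1.26 to 0.069), Xaf1 (-0.24 to 0.48), Bst2 (-0.23 to 0.19), Igtp (-0.18 to 0.28), Parp9 (-0.21 to 0.35), Dtx3l (-0.34 to 0.16), Ifi47 (-0.34 to 0.072), Samd9l (-0.67 to 0.21) and Trim30a (-0.10 to 0.58).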
